A study of Schizosaccharomyces pombe with 3 samples.

Results

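The distribution of the cohesin subunit Psc3 was compared between Schizosaccharomyces pombe cells carrying the temperature-sensitive allele cdc10-v50, arrested in G1, and wild-type cells. The comparison uses 2 of the 3 arrays in the series, 1 for each group, and 40275 of the 41551 genome probes, those whose spots were uniform on both arrays. Chromatin bound to GFP-tagged Psc3 was precipitated with an antibody against GFP and hybridised with the dye Cy5 to a tiling microarray (ChIP-chip), and DNA of the whole-cell extract, the input, was hybridised with Cy3. The wild-type strain carries the mating-type allele mat1Msmto with leu1-32 and ade6-216, its tagged gene is written Psc3-GFP::kanMX, and it was grown in rich medium at 30 °C. The other arrays are labelled only by their mutation: cdc10-v50 was grown at 26 °C and then held at 35 °C for 4 h, and clr4d, which lacks the histone H3 lysine 9 methyltransferase Clr4, was grown at 30 °C like wild type. The clr4d values are set beside the comparison because that array belongs to neither group. The labels list no wild-type culture at 35 °C and no second cdc10 allele, so allele, temperature and arrest cannot be told apart.

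Cohesin is a ring of the SMC proteins Psm1 and Psm3, the kleisin Rad21 and the subunit Psc3, and it holds sister chromatids together from their replication until anaphase. In fission yeast it is loaded before S phase, and it is concentrated at heterochromatin, where the H3K9 methyl binder Swi6 interacts with Psc3, and between convergent genes on the arms. Cdc10 is a subunit of MBF, the transcription factor that binds the sequence ACGCGT and switches on genes for S phase, so cells without its function stop before replication.

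Every value below is a log2 ratio of ChIP over input, centred on the median probe of its array, unless a single channel is named. A difference is cdc10-v50 minus wild type on the same scale. With 1 array per group there is no replicate error and no test, and each difference is set against the SD between probes. Scanning was done at 16 bits for wild type and at 20 bits for the other arrays, with another release of the scanner software, so genotype and scan cannot be told apart. In the wild-type scan 2273 probes were saturated in Cy5 and 311 in Cy3, against 0 in the cdc10-v50 scan. Where wild-type Cy5 is saturated, a rise over wild type is an upper limit and a fall below it a lower limit. The cdc10-v50 array carried 1215 non-uniform spots and 79 probes not well above background, 73 of which sat in a single patch of the slide, and its quality summary was out of range. Tile positions are the array's own.

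On the chromosome arms the arrays were close to each other. The SD of the difference over 38617 arm probes was 0.41, and 79.5% of them lay within 0.5 of wild type. Arm probes that exceeded wild type by 2-fold or more made up 1.38%, and those lower by that much 0.87%. The ratios of cdc10-v50 and wild type had a Pearson correlation of 0.78 across these probes, where neighbours are not independent, against 0.73 for cdc10-v50 with clr4d and 0.61 for wild type with clr4d. Apart from the contig named mito, the region medians that differed most were those of the centromeres and of the outer stretches of chromosomes I and II, as the plot of regions shows.

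The flanks of the centromeres, here all of each centromere interval outside its middle 6 kb, include the repeats packed as heterochromatin and carried the highest cdc10-v50 signal. Over 209 flank probes the wild-type median was 2.13 (SD 1.00), that of clr4d 0.38 (SD 0.57) and that of cdc10-v50 4.58 (SD 1.55). cdc10-v50 was above wild type at 207 of the 209 probes. The scan decides how far this difference can be read. The 143 probes saturated in wild type differed by 2.77 (SD 1.00), which is an upper limit, and there the Cy5 signal differed by 2.60 and the Cy3 signal by -0.23. At these 143 probes clr4d had median levels over its arm median of 2.44 in Cy5 and 2.09 in Cy3. The Cy3 level there was -0.52 in wild type and -0.82 in cdc10-v50. At these probes both clr4d channels thus stood above their arm medians. The Cy5 level there was 4.29 in cdc10-v50, above that of clr4d. In wild type it was 1.67, capped by saturation, so clr4d cannot be ranked against wild type in Cy5. The 66 unsaturated flank probes differed by 1.27 (SD 0.72), with Cy5 lower by -0.46 and Cy3 lower by -2.06. By these medians Cy5 was higher at the saturated flank probes and lower at the unsaturated ones, which had less input signal in cdc10-v50. The median Cy3 level of these unsaturated probes in cdc10-v50, -4.71, was near that of the centromere middles, -5.42, and far from the -0.82 of the saturated ones, so the 1.27 is not a value of the repeats alone.

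The kinetochore forms in the middle of a centromere, taken here as the middle 6 kb of each reference interval. These middles were higher as a ratio but not as a ChIP signal. Over the middle 6 kb of each interval the wild-type ratios were -0.25, -0.06 and -0.42 on chromosomes I, II and III, and those of cdc10-v50 were 1.83, 2.34 and 2.04. The differences were 1.96 (SD 0.76, 20 probes), 1.64 (SD 0.86, 18 probes) and 2.30 (SD 0.86, 10 probes). cdc10-v50 was the higher array at 47 of these 48 probes. In the single channels, each centred on its arm median, Cy5 differed by -0.77, -0.54 and -0.52 and Cy3 by -2.78, -2.59 and -2.79. By these medians the ratio was therefore higher in each centromere middle while both channels were lower than in wild type. The stretch of low input was not centred in the windows of chromosomes II and III. On chromosome II the 1-kb step at -2.5 kb, inside the window, had a wild-type ratio of 2.52, with 2 of 4 probes saturated. Outside the windows, cdc10-v50 had Cy3 levels of -5.93 at 7.5 kb on chromosome II and -6.57 at -4.5 kb on chromosome III. Such probes are counted with the flanks.

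The input signal at the centromere middles was nearer to the local background in cdc10-v50 than on the other arrays. The median scanned Cy3 signal over these 48 probes was 3044.5 against a local background of 88.3 in wild type, 1204.8 against 161.5 in clr4d and 652.8 against 182.0 in cdc10-v50. After subtraction the Cy3 signal was 35.9 times its local background in wild type, 6.44 times in clr4d and 2.47 times in cdc10-v50. In Cy5 the same value was 36.7 times in cdc10-v50 and 38.9 times in clr4d. The result changed with the signal used. With the local background subtracted and no detrending, the middles differed by 0.82 (SD 1.06), and after normexp background correction they differed by -0.20 (SD 0.60), so that the direction turned. The flanks differed by 2.05 and 2.01 under the same settings, but 143 of their 209 probes were saturated in wild-type Cy5. The flank values are therefore largely upper limits.

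Probes with little input differed between the arrays on the arms as well, though by less. Arm probes were ranked by their Cy3 signal on the clr4d array. Those with a signal between 1 and 2 above the arm median differed by -0.17 (SD 0.42, 3949 probes), and the 440 brighter ones by 0.15 (SD 0.61). The difference was 0.20 between -2 and -1, 0.39 between -3 and -2, and 0.61 between -4 and -3 (SD 0.48, 386 probes). The 171 arm probes below -4 differed by 0.80 (SD 0.53). The 1562 arm probes in the clr4d Cy3 range of the centromere middles differed by 0.46 (SD 0.45) against 1.96 in the middles. Their Cy3 signal differed by -0.10 (SD 0.66) against -2.72 in the middles (SD 0.95), and after subtraction it stood at 17.2 times the local background in cdc10-v50. The loss of input signal in cdc10-v50 was thus larger at the centromere middles than at arm probes of like clr4d input.

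That loss had clear borders. The centromeres held 257 of the 40275 probes used. Of the probes well above background on both arrays, 13 had a Cy3 signal at least 10-fold lower in cdc10-v50 than in wild type after centring, and all 13 lay in the centromeres. Without the background filter there were 45, of which 16 lay in the centromeres and 28 on the arms. At a threshold of 4-fold, chosen after seeing the data, 74 probes well above background were lower, of which 70 lay in the centromeres. Runs of at least 3 such probes lay in the centromeres alone: on chromosome I from 3767101 to 3771300 and from 3771901 to 3777000, on chromosome II from 1620901 to 1626900 and from 1628701 to 1630200, and on chromosome III from 1094401 to 1095600 and from 1097101 to 1105800. The run of 8.7 kb on chromosome III had median Cy3 levels of -2.57 for wild type, -3.50 for clr4d and -5.46 for cdc10-v50. In the run of 6 kb on chromosome II the levels were -3.03, -4.13 and -5.49. In both runs clr4d lay between the other arrays and nearer to wild type. Whether the DNA there was recovered, amplified or labelled less was not tested.

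**Figure D1:**
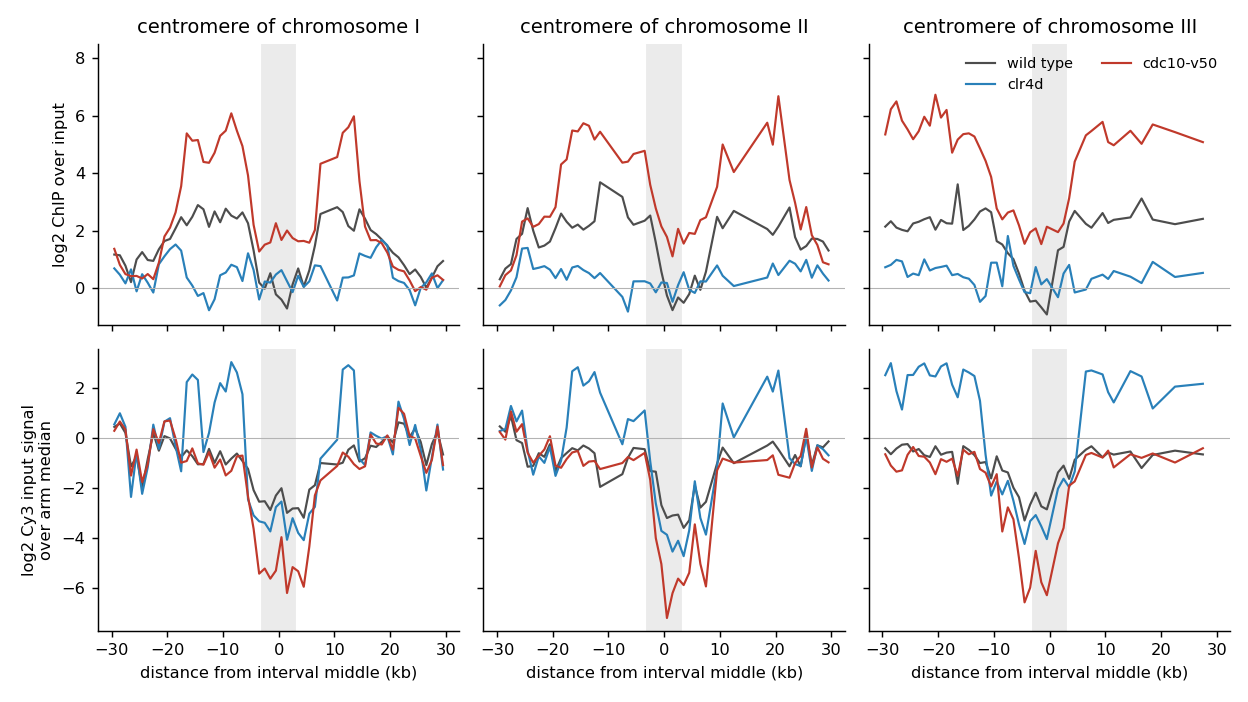
Mean log2 ChIP over input (upper row) and mean log2 Cy3 input signal over the arm median (lower row) in 1-kb steps from the middle of each centromere interval, with the middle 6 kb shaded. In cdc10-v50 the input is lowest in and beside the shaded part, where its ratio stays above 1, and the flanks reach the highest ratios.

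The opposite imbalance appeared on the contig named mito on the array. All 60 of its probes were saturated in wild-type Cy3, so the wild-type ratio there, -1.46 (SD 0.80), is an upper limit. In cdc10-v50 the ratio was -3.70 (SD 0.37), without saturation, and clr4d lay slightly lower (SD 0.34). This contig was thus far below the arm level in both 20-bit scans.

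Near the telomeres of chromosomes I and II the ratio and the Cy5 signal were both higher in cdc10-v50. Over the 264 unsaturated probes of their outer 50 kb the ratio differed by 0.86 (SD 0.73), Cy5 by 1.07 and Cy3 by 0.20. In the outer 10 kb the means were 2.37 in wild type and 4.78 in cdc10-v50 at the left end of chromosome I, and 2.48 and 4.64 at its right end. On chromosome II they were 2.03 and 3.52 at the left end and 2.04 and 3.52 at the right. Most of these probes were saturated in wild type, so the differences of 2.41, 2.17, 1.49 and 1.48 are upper limits. The right end of chromosome I then crossed over: between 30 and 40 kb wild type stood at 2.77 or more and cdc10-v50 at 2.54, and between 40 and 50 kb wild type stood at 2.69 or more and cdc10-v50 at 2.15, with cdc10-v50 above wild type at 3 of 31 probes. At the other 3 ends cdc10-v50 was higher in each 10-kb step of the outer 50 kb, and at the left ends of chromosomes I and II this held at every probe, 143 of 143 and 111 of 111.

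The higher signal reached into the arms, and it did so unequally. Between 50 and 100 kb from the left end of chromosome II the median was 0.42 in wild type and 1.30 in cdc10-v50, a difference of 0.88 (SD 0.49), with cdc10-v50 above wild type at 145 of 153 probes. Between 100 and 130 kb from this end it was -0.02 and 0.82, a difference of 0.69 (SD 0.51, 87 of 92 probes). Of these probes 149 and 89 were unsaturated, and they differed by 0.90 and 0.71. The Cy5 signal differed by 0.88 and 0.72 and the Cy3 signal by 0.02 and -0.05. The left end of chromosome I had 0.69 between 50 and 100 kb (SD 0.63) and -0.12 beyond it. The right ends had 0.37 and -0.08 on chromosome I, and 0.29 and 0.20 on chromosome II. The ends of chromosome III, which adjoin the ribosomal DNA, had 0.04 and 0.11 on the left and 0.12 and 0.23 on the right. In steps of 10 kb the right ends also differed near the border: between 50 and 60 kb the mean difference was 0.80 on the right of chromosome I (30 of 33 probes) and 0.96 on the right of chromosome II (30 of 30), against 0.41 and 0.69 on the left ends. Of the 6 ends, the left end of chromosome II alone had a median difference above its probe SD between 100 and 130 kb.

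**Figure D2:**
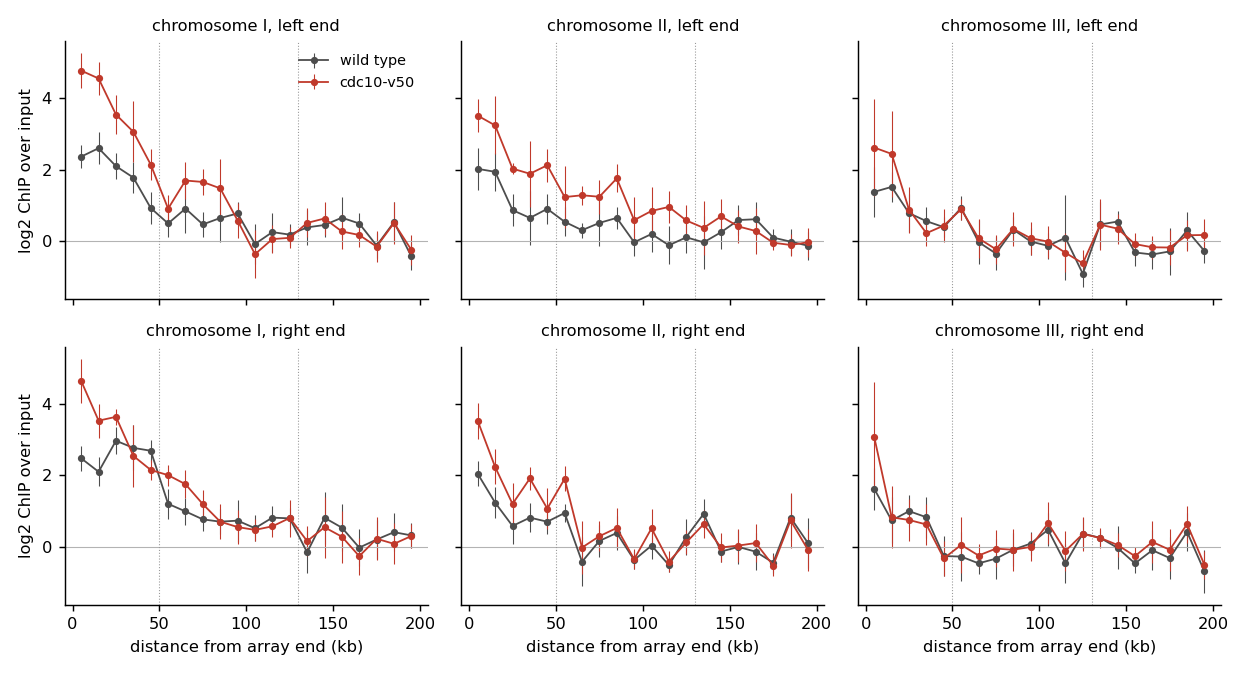
Mean log2 ChIP over input in 10-kb steps from each end of the 3 chromosomes on the array, with SD bars over probes; the dotted lines mark 50 and 130 kb. At the left end of chromosome II cdc10-v50 stays above wild type to about 150 kb, and at the right end of chromosome I it drops below wild type before 50 kb.

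Of 2401 arm windows of 5 kb, cdc10-v50 exceeded wild type by 2-fold or more in 5 (0.208%), and 2 were lower by that much (0.0833%). The 5 higher ones lay within 130 kb of an end of chromosome I or II, a limit set after these values were seen. At a lower threshold of 0.75 there were 20 higher windows, and all 20 were among the 63 windows of this zone, with 0 among the other 2338. By end, 11 of them lay on the left of chromosome II, 5 on the left of chromosome I and 2 on each of the right ends. Over these 20 windows the wild-type mean ranged from -0.32 to 1.19 and the cdc10-v50 mean from 0.77 to 2.18. The Cy5 difference was above 0 in all 20, with a median of 1.08, and the median Cy3 difference was 0.12. At 0.5 there were 60 higher windows (2.5%), 27 of them in the zone, and 56 lower ones (2.33%). The 32 windows at the same distance from the ends of chromosome III included 0 at 0.75 or above.

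The named windows show the levels. From 70001 to 75000 on chromosome I wild type had a mean of 0.37, clr4d 0.44 and cdc10-v50 1.77, higher at all 16 probes. From 115001 to 120000 on chromosome II it was -0.32, 0.31 and 1.03, higher at all 17 probes, so a stretch below the array median in wild type lay above it in cdc10-v50. From 85001 to 90000 on chromosome II it was 0.71, 0.86 and 1.96, and none of its probes was saturated. Other windows of the zone were at 50001 on chromosome II (1.12), 5515001 on chromosome I (0.98) and 4455001 on chromosome II (0.91). Outside the zone the highest differences were smaller: 0.66 at 1855001 on chromosome I, 0.65 at 140001 on chromosome II, 0.64 at 1680001 on chromosome III and 0.63 at 2770001 on chromosome I.

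Windows with less Psc3 signal in cdc10-v50 were spread over the arms. At a difference of -0.75 or lower there were 12 of 2401 (0.5%). Of these 12, 0 lay within 130 kb of an end of chromosome I or II. That zone holds only 63 of the 2401 windows, so a count of 0 among 12 does not set it apart. The 12 windows had wild-type means from 0.11 to 1.71 and cdc10-v50 means from -0.74 to 0.91. clr4d was nearer to wild type than to cdc10-v50 in 9 of the 12. From 1835001 to 1840000 on chromosome III wild type had 0.44, clr4d 0.48 and cdc10-v50 -0.58, and from 1480001 to 1485000 on chromosome I it was 0.31, 0.48 and -0.60. The window from 1885001 to 1890000 on chromosome II had 1.25 in wild type, with 11 of 17 probes saturated, 1.18 in clr4d and 0.38 in cdc10-v50. Further windows differed by -0.86 at 220001, -0.85 at 3305001, -0.84 at 3980001, -0.82 at 455001 and -0.79 at 1915001 on chromosome I, and by -0.77 at 4080001 on chromosome II. These loci could not be given gene names, because tile positions there were offset from the reference. The window with the largest fall, from 115001 to 120000 on chromosome III, covers ura4, which is described below. It had 0.79 in wild type, with 5 of 16 probes saturated, -0.34 in clr4d and -0.45 in cdc10-v50, a difference of -1.24.

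**Figure D3:**
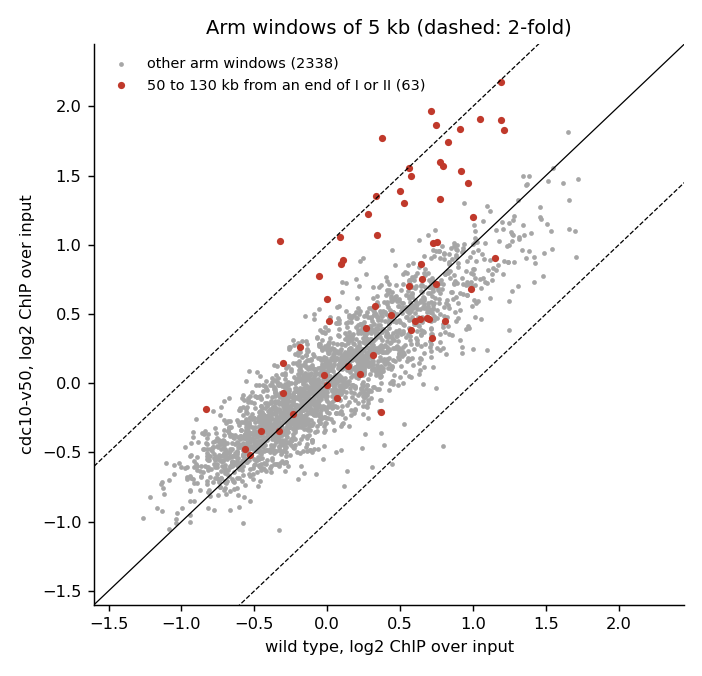
Mean log2 ChIP over input of each 5-kb arm window in wild type and in cdc10-v50, with windows 50 to 130 kb from an end of chromosome I or II in red and dashed lines at a 2-fold difference. The red windows make up all 5 above the upper line, and 2 grey ones lie below the lower line.

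The arm difference was local. Neighbouring 5-kb windows had differences with a correlation of 0.38, which dropped to 0.20 at 10 kb and 0.05 at 20 kb. Of 239 windows of 50 kb, 97.5% lay within 0.25 of wild type, and the highest, at 0.83, began at 50001 on chromosome II. Over 10 equal groups of arm probes ranked by the clr4d ratio, the mean difference ran from -0.09 in the lowest group to 0.09 in the highest.

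The arms carry Psc3 in short peaks, and most of them were found on both arrays. Stretches of at least 3 probes with a running mean of at least 1 numbered 263 in wild type and 270 in cdc10-v50. Of the wild-type peaks 70.3% overlapped a cdc10-v50 peak, and of the cdc10-v50 peaks 67.0% overlapped a wild-type peak. The height at a peak depends on which array chose it: the median difference was -0.25 at wild-type peaks (SD 0.38) and 0.15 at cdc10-v50 peaks (SD 0.38). At the 305 peaks chosen on clr4d, the array outside the comparison, it was 0.04 (SD 0.35), and its sign changed among the alternatives, from -0.12 to 0.16. Of these, 3 exceeded wild type by 2-fold or more (0.984%), and 1 was lower by that much (0.328%). clr4d shares its scan setting with cdc10-v50, and 60.3% of its peaks overlapped a cdc10-v50 peak against 53.8% for wild type.

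Counts at peaks chosen on 1 of the compared arrays carry the direction of that choice and are given as a description. Of the 270 cdc10-v50 peaks, 7 exceeded wild type by 2-fold or more (2.59%), and 0 were lower by that much (0%). Of the 263 wild-type peaks, 5 were lower in cdc10-v50 by 2-fold or more (1.9%), and 3 were higher by that much (1.14%). All but a small minority of the 270 cdc10-v50 peaks lay outside the zone within 130 kb of an end of chromosome I or II. The median difference of those outside was 0.13, against 0.15 over all 270. This limit was set after the values were seen, and the peaks counted next were picked as extremes. Their counts in the zone are therefore only a description. Among the 10 cdc10-v50 peaks that differed most, 6 lay in the zone, and 5 of the 10 highest cdc10-v50 peaks did. The longest of these ran from 59101 to 80100 on chromosome I, with a mean of 0.71 in wild type and 1.67 in cdc10-v50, and from 5503201 to 5524800 at the other end, with 1.08 and 1.85. The wild-type peaks that differed most lay elsewhere. The peak from 2214301 to 2215200 on chromosome II had 1.24 for wild type, 0.03 for cdc10-v50 and 0.02 for clr4d, with 2 of 3 probes saturated. The peak from 2714701 to 2715900 on chromosome I had 1.14, -0.01 and -0.01, and that from 1484101 to 1485300 had 1.12 for wild type, 1.16 for clr4d and 0.06 for cdc10-v50. The cdc10-v50 peak with the largest difference, 1.82 at 856201 to 857100 on chromosome III, rested on 1 tile with a ratio of 5.03 between tiles at -0.50 and -0.26.

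The highest cdc10-v50 arm peak, with a height of 3.43, lay on chromosome III from 275401 to 277200 and covered the gene mae2. Its tiles ranged from 2.31 to 3.88 in cdc10-v50 and from 1.85 to 2.65 in wild type, where all 5 were saturated, and from -0.86 to -0.20 in clr4d. The Cy3 signal of these tiles ranged from 0.73 to 2.41 in clr4d and from -0.95 to -0.14 in wild type. In mae2, 188 of 1978 words of 25 bases are shared with the last 50 kb of chromosome I or II in the reference. How much of the signal comes from those ends was not tested.

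Genes could be named between 50 and 1000 kb of chromosome III, where tile positions matched the reference. Of 374 protein-coding genes there, 337 had at least 3 tile centres inside. Of these, cdc10-v50 exceeded wild type by 2-fold or more at 1 (0.297%), and 3 were lower by that much (0.89%). The difference was under 0.5 in size at 91.4%. All tiles of a gene differed in the same direction at 113 genes, upward at 74 and downward at 39. The median gene difference was 0.08 (SD 0.32).

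Both genes are shown by the start of their coding strand, from RefSeq assembly ASM294v3, with the start codon in capitals, to identify the named genes with the lowest and the highest mean difference. ura4, which encodes orotidine 5′-phosphate decarboxylase of uracil synthesis, lies on the minus strand and its stretch is chrIII:116396-116575. SPCC794.04C, which encodes a transporter, also lies on the minus strand, and its stretch is chrIII:250015-250194.
ura4: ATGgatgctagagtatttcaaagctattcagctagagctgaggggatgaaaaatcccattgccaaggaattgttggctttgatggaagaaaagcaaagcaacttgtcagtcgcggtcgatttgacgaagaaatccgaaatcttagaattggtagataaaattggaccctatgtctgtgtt
SPCC794.04C: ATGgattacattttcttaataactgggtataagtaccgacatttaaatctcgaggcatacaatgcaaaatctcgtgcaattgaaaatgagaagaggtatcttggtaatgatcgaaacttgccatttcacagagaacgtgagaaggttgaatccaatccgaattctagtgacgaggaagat

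Over ura4 the signal of wild type formed a block with sharp edges that cdc10-v50 lacked. The 4 tiles with centres inside the gene, from 115501 to 116700, had ratios of 2.61, 2.66, 2.11 and 2.60 in wild type. In cdc10-v50 they had 0.09, 0.26, 0.33 and 0.26, and in clr4d 0.48, 0.50, 0.59 and 0.72. Wild-type Cy5 was at saturation in all 4, so the mean difference of -2.26 (SD 0.33) is a lower limit of its size. The tile upstream of the gene, from 116701 to 117000, was saturated as well, and cdc10-v50 had 0.14 there, and the next upstream tiles had 0.83 and 0.79 in wild type and -0.42 beyond them. Input was present on every array: Cy3 over the gene ranged from -0.94 to -0.16 in wild type and from -1.20 to 0.03 in cdc10-v50. No word of 25 bases in ura4 occurs elsewhere in the reference chromosomes (0 of 1013). The labels do not give the ura4 allele of any strain. pmp20, which lies within 10 kb of ura4 and so falls outside the rule of 1 named gene per 10 kb, was named after its value was seen: its 3 tiles had means of -0.23 for wild type, -1.38 for clr4d and -1.38 for cdc10-v50.

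SPCC794.04C was the only gene of the stretch at least 2-fold higher, and not under every setting. Its 7 tiles ranged from -0.11 to 0.47 in wild type, from 0.60 to 0.94 in clr4d and from 0.74 to 1.66 in cdc10-v50. The gene was chosen for the size of its difference, so these ranges are a description. The mean difference was 1.02 (SD 0.19), with Cy5 higher by 1.24 and Cy3 by 0.20. Among these 7 tiles the one with the largest difference, 1.31, was saturated in wild type. The mean was 0.97 without saturated probes, 0.94 after normexp and 0.93 after loess normalization, below 2-fold in each. The clr4d mean, 0.80, also lay above wild type. The higher stretch was not confined to the gene: the tiles upstream of it, from 250201 to 251700, differed by 1.14, 1.32, 1.00, 1.12 and 1.27. From 250801 to 251700 clr4d had 1.37, 1.04 and 1.61 against 0.86, 0.60 and 0.77 in cdc10-v50.

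pef1, which encodes a cyclin-dependent kinase, was above the array median on all arrays. Its 4 tiles, 1 of them saturated, lay between 1.61 and 1.80 in wild type, between 1.01 and 1.36 in clr4d and between 0.57 and 0.79 in cdc10-v50. The mean difference was -1.05 (SD 0.17), with -0.82 in Cy5 and 0.21 in Cy3. With loess it was -0.73, below 2-fold.

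**Figure D4:**
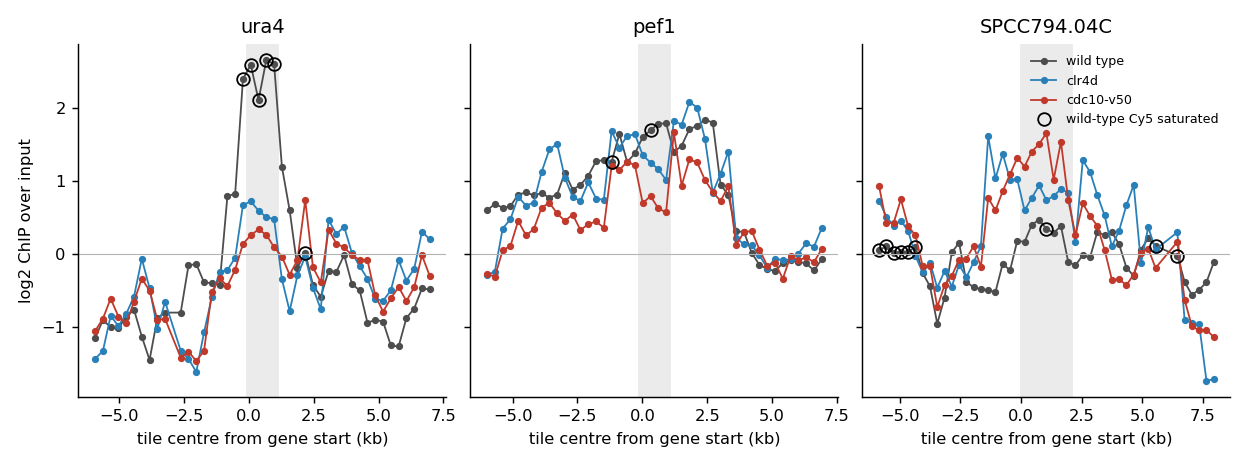
Log2 ChIP over input of each tile around ura4, pef1 and SPCC794.04C against the distance of its centre from the gene start, with the gene shaded and wild-type tiles saturated in Cy5 circled. Over ura4 wild type reaches 2.66 and cdc10-v50 stays below 0.4, and over SPCC794.04C cdc10-v50 is the highest array at 6 of 7 tiles. Upstream of SPCC794.04C, from 250801 to 251700, clr4d is the highest.

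Other genes differed less. Among those with every tile in the same direction, pdh1 had -0.47 for wild type, 0.28 for clr4d and 0.26 for cdc10-v50, and both channels were higher there, Cy5 by 1.53 and Cy3 by 0.78. ago1, encoding the Argonaute protein of RNA interference, had 0.18, 0.30 and 0.78, and it was higher at all 9 tiles. mad3, of the spindle checkpoint, had -0.17, 0.15 and 0.38. Further higher genes of this class were rpn8, encoding a proteasome subunit (0.66), mob2 (0.65), bqt3 (0.57), mug111 (0.55), mgl1 (0.53) and tap42 (0.50). In the other direction, ade10, of purine synthesis, had 0.61 for wild type, -0.25 for clr4d and -0.23 for cdc10-v50, and dom34, of ribosome rescue, had 0.65, 0.56 and -0.02. Smaller values were measured at sfh1 (-0.63), eap1 (-0.62), bpb1 (-0.58), duc1 (-0.52), mlo1 (-0.45) and dbl1 (-0.43). clr4d was nearer to wild type at dom34, mlo1 and dbl1 and nearer to cdc10-v50 at ade10, sfh1 and eap1.

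The gene lists had few members on this stretch, and 0 members past 2-fold other than ura4. None of the 14 listed MBF targets lies on it, rad21 included. The sequence ACGCGT, searched from 250 bases before to 50 after each gene start and identical on both strands, occurs at 8 of 374 genes (2.14%). Those 8 genes differed by -0.05 in the median, from -0.33 to 0.26, against 0.08 over all 337. Of the cohesin list only cut1, the separase that cleaves the kleisin, was measured, with -0.61 in wild type and -0.24 in cdc10-v50. Of the heterochromatin genes, ago1 differed by 0.59 and raf2 by 0.10. The kinetochore and checkpoint genes mis18, mis16, spc7 and mad3 differed by 0.52, 0.26, 0.19 (SD 0.57, 9 of 14 tiles higher) and 0.55. Over all genes measured, 199 of 337 were higher in cdc10-v50. The catalase gene ctt1, from the list of stress genes, differed by -0.33 (1.29 to 0.95), and tpi1, the only glycolysis gene there, by -0.43. The 4 measured ribosomal protein genes ranged from -0.26 to 0.17. The 11 tRNA genes, covered by 1 or 2 tiles each, had a median of 0.26 and ranged from -0.42 to 0.87.

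Psc3 followed gene orientation in the same order on both arrays. Between convergent genes, in 21 intervals that hold a tile centre, the median was 0.11 for wild type, 0.48 for clr4d and 0.44 for cdc10-v50. Between tandem genes, in 130 intervals, it was -0.24, 0.03 and -0.06. Between divergent genes, in 82 intervals, it was -0.63, -0.32 and -0.43. The difference between cdc10-v50 and wild type was 0.25 (SD 0.44), 0.18 (SD 0.38) and 0.19 (SD 0.40), against 0.08 over all 3060 probes of the stretch. With tiles within 300 bp of each interval's middle, an alternative chosen after seeing the data that takes in short intervals, the differences were 0.18, 0.18 and 0.16 over 96, 175 and 97 intervals. The spread from divergent to convergent intervals was thus present in G1-arrested cells, and all types of interval differed by less than their SD.

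Elsewhere in the heterochromatin the difference was smaller or rested on saturated probes. The contig of the mating-type region had 1.21 for wild type (SD 1.07), 0.02 for clr4d and 1.70 for cdc10-v50 (SD 1.71). Its 50 unsaturated probes differed by 0.14 (SD 0.48) and its 49 saturated ones by 1.04 (SD 1.00). The pNSU contigs, whose content the labels do not explain, had 1.52, 0.21 and 2.50, and their 37 unsaturated probes differed by 0.41 (SD 0.60). The outer 50 kb of chromosome III had 0.65 in wild type and 0.57 in cdc10-v50, and its 200 unsaturated probes differed by -0.15 (SD 0.39). Its 65 saturated probes differed by 0.86, an upper limit, and 52 of them were higher in cdc10-v50. The 181 probes that border the centromere intervals had 1.44 and 1.58, with cdc10-v50 above wild type at 97 of them. The 1-kb steps centred 15.5 and 16.5 kb left of the middle of centromere I, just outside its interval, differed by 2.65 and 3.20. Their probes were all saturated in wild type. The steps at the same array distance on the right differed by -0.27 and -0.36. The interval was placed by reference positions, and tiles fitted best at a shift of -820 bp in the stretch from 3700 kb of chromosome I. In the stretch from 3800 kb the best shift was 4280 bp. Equal array distances are therefore not equal distances from the flanking genes, and whether the sides differ in Psc3 was not tested.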

How the data were processed

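The authors deposited scanner output of Agilent Feature Extraction, with release 11.0.1.1 used on the wild-type array and 11.5.1.1 on both mutants, per the file headers. Its processed intensity of each channel is background-subtracted, detrended and dye-normalized, per the file headers. The deposited files also give scanned median and local background intensity, a red-to-green log10 ratio, and flags for saturation, uniformity and signal above background. The authors' deposited value table holds log2 of green over red and equals minus the ratio used here to within 0.001 at all 41551 probes. Per the labels' protocols, cells were fixed at 18 °C with paraformaldehyde for 30 min and dimethyl adipimidate for 45 min, and DNA was amplified by random-primed PCR. No dye swap was made, and no build is stated for the tile positions in the sources used here.

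The log2 ratio of Cy5 over Cy3 was centred on the array median (0.17, -0.04 and -0.06 for wild type, clr4d and cdc10-v50). The 1417 control spots and spots non-uniform on either array were left out. Centromeres are the longest intervals between protein-coding genes of ASM294v3 less 5 kb on either side, arms leave out a border of 10 kb beyond, and ends are the outer 50 kb. Region values are medians over probes and window, peak and gene values are means. Genes and windows named are the 10 largest differences in each direction, windows at most 1 per 20 kb and genes, with all tiles in 1 direction, at most 1 per 10 kb, the 10 highest and most different peaks, and list members. Positions were checked by correlating input with GC content: 10 stretches of chromosome III from 0 to 1000 kb fitted best at shifts from -100 to 120 bp, and 114 of 116 elsewhere beyond 500 bp. The comparison, the lists and the zones were chosen with earlier results of these data known. There were 0 other per-sample columns. The number of arrays limits the precision, and no test was possible. Python 3.11.15, R 4.3.3 and limma 3.58.1 were used, and window and peak calls were tested on simulated data. Alternatives were normexp (offset 50) and plain subtraction, both on median signals because the files used here hold no mean signals, the value table, loess, other probe filters, centring, scaling, window lengths, peak thresholds and tile shifts. The value of 1 list member is not reported here.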

Additional observations from a re-analysis of the deposited data

How the results depend on the processing

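The centromere middles reversed after normexp, to -0.20, and moved to 0.82 with plain background subtraction. The other regions stayed within 1 SD between probes of their value under all alternatives, at 0.80 to 1.17 for the last 50 kb at the ends of chromosomes I and II, and 1.27 to 2.43 for the centromere flanks. Counts of arm windows at least 2-fold higher and lower, 5 and 2, became 15 and 17 after normexp, 1 and 1 after loess, 28 and 19 in windows of 2 kb, and 3 and 0 in windows of 10 kb. The higher count became 9 after scaling by the arm SD and 0 without the zone beside the ends of chromosomes I and II, and the lower count became 1 with medians over probes. In windows of 5 kb, 8 in that zone reached 0.75 after loess and 18 to 22 under the other alternatives of signal, probe choice, centring and scaling, against 0 elsewhere under each of these. The zone's limit of 130 kb was set after the values were seen, so the 0 elsewhere follows in part from that choice. Peak overlap of the wild-type and cdc10-v50 lists, 70.3% and 67.0%, became 60.4% and 83.0% after normexp and 47.9% and 44.7% at a peak height of 1.5. The wild-type share became 64.1% without saturated probes and 77.8% after scaling. The count of higher genes, 1, became 0 after normexp, after loess and without saturated probes, and 2 with non-uniform spots kept and after scaling. The count of lower genes, 3, became 7 after normexp and 1 with tiles shifted by 100 bp. Probes with a Cy3 signal at least 10-fold lower than on the other array, dim ones included, numbered 45 for cdc10-v50 and 10 for wild type, and 106 and 91 at 4-fold. The cause of these changes was not tested, apart from window length, probe choice and threshold, which act by construction. The sign of the median difference at peaks also changed among alternatives, from -0.06 to 0.32 for peaks chosen on cdc10-v50. No paired analysis was possible because each group has 1 array. At the centromere middles the Cy3 signal of cdc10-v50 was 2.47 times its local background after subtraction, the lowest of the arrays. Cy5 was saturated in wild type at many flank and end probes.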
